A study of Mus musculus with 9 samples.

Results

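The Ly6 antigen family was followed through 9 gene expression arrays of sorted mouse cells by taking every probe set annotated to Ly6c1, Ly6c2, Ly6a, Ly6e, Ly6g, Ly6d or Ly6i. This covers 6 of the 21334 gene symbols in the array's annotation. Among the 34760 probe sets, 6 met the rule: 4 belong to 1 listed gene each (Ly6e, Ly6g, Ly6d and Ly6i) and 2 are annotated to both Ly6c1 and Ly6c2. No probe set carried the symbol Ly6a in the annotation used, so Ly6a, the remaining gene of the 7 listed, was not analysed here. The arrays hold 3 samples each of Ly6C-high microglia, which the submitters label MgSCs, Ly6C-low microglia, which they label bulk microglia cells, and spleen monocytes, with no Ly6C gate given for the monocytes. All came from wild type C57BL/6 mice with no treatment named and no age given. The sort used CD45, CD11b, F4/80 (EMR1), Ly6C and MHC class II, after perfusion, enzymatic digestion and Percoll enrichment of the brain. The labels do not say whether replicates came from separate or pooled animals, so the p-values reflect variation among these arrays, part of which may be technical. Bulk RNA does not separate fewer cells of a type from less RNA per cell.

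Ly6 proteins are small surface proteins built on a 3-finger fold held by disulfide bonds, and most are fixed to the membrane by a GPI anchor. In mouse blood they serve as lineage markers: Ly6C marks inflammatory monocytes and is also carried by brain endothelium and some lymphocytes, and Ly6G marks neutrophils. Ly6E (also called TSA-1 or Sca-2) is widespread and interferon-inducible, and Ly6D is known from early B-lineage and plasmacytoid dendritic cell precursors. Because surface Ly6C divided the microglia in the sorter, the level of its transcript between those groups is a check of the sort and not an independent finding.

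All values are log2 intensities, given as mean ± SD over n = 3 arrays per group; differences are log2 fold changes ± standard error from one limma fit across all 34760 probe sets, with 95% intervals and Benjamini-Hochberg adjusted p-values, called at 0.05. Levels are compared between groups within a probe set only, since probes differ in brightness. Across probe sets, array-to-array correlations were 0.872 to 0.924 among Ly6C-high arrays, 0.967 to 0.980 among Ly6C-low arrays and 0.978 to 0.983 among monocyte arrays. Between the microglia groups 3 of the 6 probe sets were called, all higher in Ly6C-high cells, where 10.6% of all probe sets were called, 3.15% higher and 7.49% lower. They are Ly6e and both shared Ly6c1/Ly6c2 probe sets, which measure the transcripts of the antigen that divided these groups. The count is therefore no measure of the family as a whole. Against monocytes 2 of 6 were called lower in Ly6C-high microglia (14.4% of all called, 4.45% higher and 9.93% lower) and 4 of 6 lower in Ly6C-low microglia (9.56% of all called, 4.4% higher and 5.16% lower), and none was called higher. The comparisons against monocytes share the same 3 monocyte arrays.

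**Figure D1:**
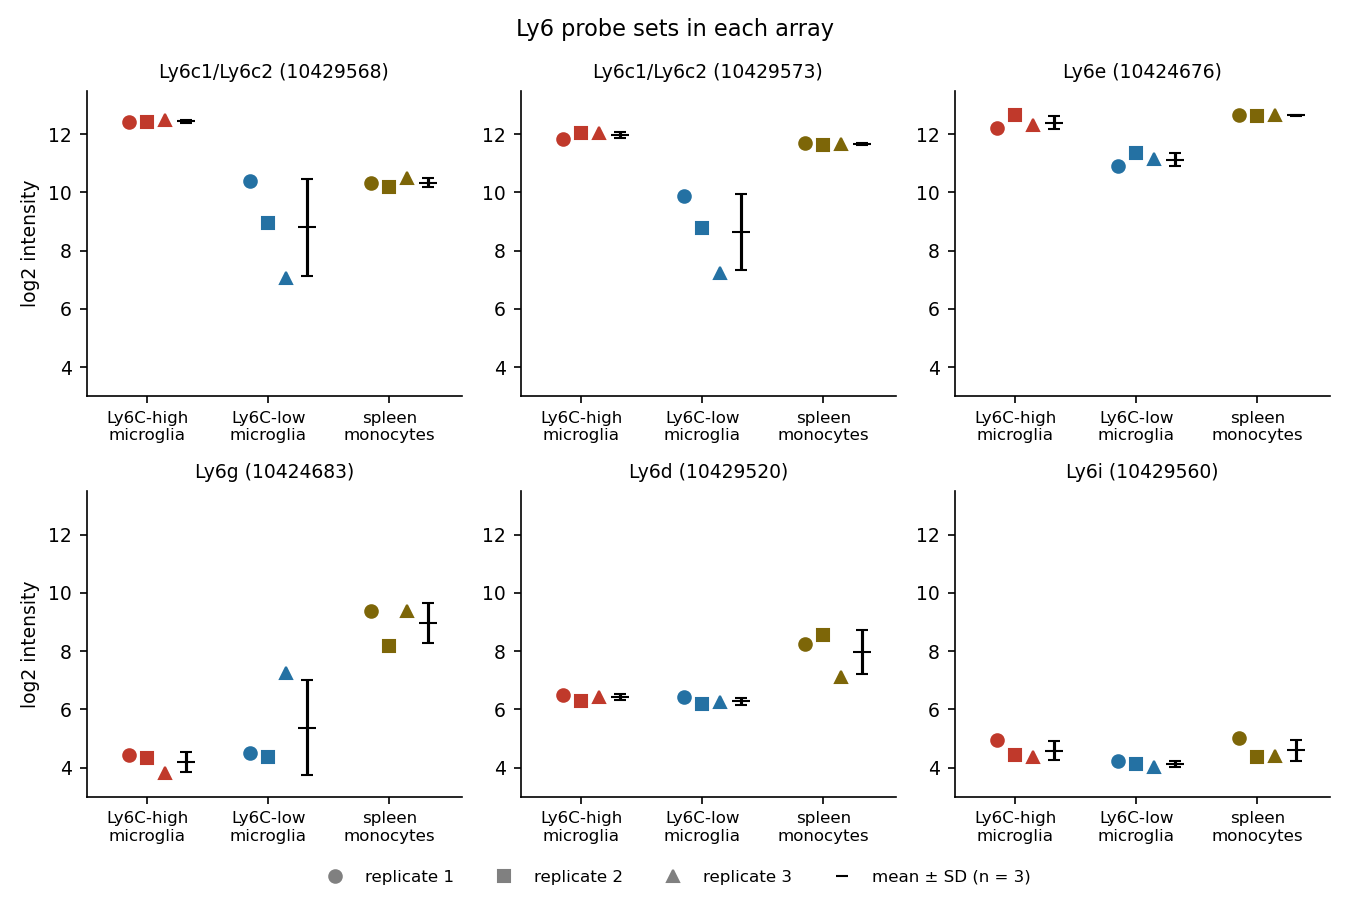
Log2 intensity of the 6 Ly6 probe sets in each array, by sorted group, with a symbol per replicate and the mean ± SD (n = 3) in black. The Ly6c1/Ly6c2 probe sets spread widely within Ly6C-low microglia, from 7.07 to 10.39 and from 7.25 to 9.87, while Ly6e separates Ly6C-low microglia from both other groups.

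Ly6c1 and Ly6c2 are near-copies on chromosome 15, and no probe set told them apart. Upstream sequences were taken from the RefSeq promoter table (build GRCm38.p6), which held 3 of the 7 listed genes. No transcript or probe sequence was compared, so they do not show how alike the shared probe sets read Ly6c1 and Ly6c2. Each is cut to the bases outside the annotated gene, up to its 5′ end, and written 5′ to 3′ along the gene; capitals mark the longest run, of 12 bases, found in all 3. Ly6c1 lies on the minus strand at chr15:75048921-75049087, Ly6c2 on the minus strand at chr15:75112067-75112221 and Ly6g on the plus strand at chr15:75155011-75155260.
Ly6c1: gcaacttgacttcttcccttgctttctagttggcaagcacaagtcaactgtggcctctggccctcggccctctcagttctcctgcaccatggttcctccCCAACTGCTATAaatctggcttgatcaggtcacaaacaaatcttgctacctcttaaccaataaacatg
Ly6c2: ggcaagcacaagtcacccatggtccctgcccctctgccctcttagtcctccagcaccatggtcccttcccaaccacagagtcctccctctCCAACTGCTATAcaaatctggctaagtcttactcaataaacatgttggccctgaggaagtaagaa
Ly6g: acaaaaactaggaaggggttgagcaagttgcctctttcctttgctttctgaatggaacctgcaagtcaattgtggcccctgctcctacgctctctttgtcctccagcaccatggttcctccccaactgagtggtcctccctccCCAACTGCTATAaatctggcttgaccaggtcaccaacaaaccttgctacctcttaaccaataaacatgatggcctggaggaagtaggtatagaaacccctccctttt
Aligned with gaps left out, Ly6c1 and Ly6c2 were identical at 73.9% of 134 bases, Ly6c1 and Ly6g at 83.8% of 167 and Ly6c2 and Ly6g at 77.4% of 155. These shares depend on the gap cost set for the alignment, which decides whether the run in capitals is set against itself. They therefore do not show which pair is most alike. In the full windows, which run from 250 bases before to 50 after a gene start, the letters of a PU.1 core (GAGGAAGT, either strand) occurred for Ly6c2 and Ly6g and in 3.20% of all 32851 windows. A TATA motif (TATAAA, either strand) occurred for Ly6c1 and Ly6g and in 13.6% of all. A core of the interferon response element (GAAANNGAA, in 8.56% of windows) and a STAT site (TTCNNNGAA, in 8.30%) were searched on both strands. Neither had a match in the windows searched for these 3 genes. Each of these genes had 2 gene-start windows, and only the outermost was searched for the 4 motifs. A motif not found there may still occur at the other start. In Ly6c1 and Ly6g the TATA match starts inside the capitals and runs past them, and in Ly6c2 other letters follow there. A match describes the letters only.

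The Ly6c transcripts were highest in Ly6C-high microglia on both shared probe sets. Probe set 10429568 read 12.40, 12.43 and 12.50 in Ly6C-high replicates 1 to 3, 10.39, 8.94 and 7.07 in Ly6C-low replicates 1 to 3 and 10.31, 10.20 and 10.51 in the monocytes. The Ly6C-high arrays all lie above the rest, and Ly6C-low replicate 1 lies among the monocytes. The difference between the microglia groups was 3.64 ± 0.69 (12.5-fold, 95% interval 4.15 to 37.5-fold, adjusted p = 0.0131). Probe set 10429573 read 11.85, 12.03 and 12.03 in Ly6C-high, 9.87, 8.79 and 7.25 in the Ly6C-low group and 11.69, 11.64 and 11.65 in monocytes. Here the Ly6C-low arrays all lie below both other groups, and the difference between the microglia groups was 3.33 ± 0.55 (10.1-fold, 95% interval 4.19 to 24.2-fold, adjusted p = 0.0070). Both calls rest on Ly6C-low arrays that span 3.31 and 2.62 log2 units, against 0.09 and 0.18 in Ly6C-high arrays. Without Ly6C-low replicate 3 the differences were 2.78 and 2.64, and without replicate 1 they were 4.43 and 3.95, and each stayed called. With 1 weight per group, shared by all probe sets, both calls ended (adjusted p = 0.0918 and 0.0554). Such a weight does not model the spread of these probe sets. Over all probe sets the median SD was largest in Ly6C-high arrays (0.300, against 0.163 in Ly6C-low and 0.128 in monocyte arrays). For Ly6c the spread was largest in Ly6C-low arrays. The former call also ended when the monocytes were left out of the fit (adjusted p = 0.0603).

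Against monocytes the shared probe sets gave different readings of the same gene pair. On 10429568 Ly6C-high microglia stood 2.11 ± 0.69 above monocytes (4.30-fold), with every Ly6C-high array above every monocyte array, but in the fit with all 9 arrays this did not pass (adjusted p = 0.0806). It passed when the spread was estimated from the 6 arrays compared (adjusted p = 9.98e-04), and also without Ly6C-low replicate 1 (0.0220) or replicate 3 (0.0106). On 10429573 the same contrast was 0.30 ± 0.55 (1.23-fold, 95% interval 0.514 to 2.96-fold, adjusted p = 0.693), although these arrays do not overlap either. The gap between the probe sets within an array (10429568 minus 10429573) was 0.47 ± 0.08 in Ly6C-high microglia, 0.16 ± 0.35 in the Ly6C-low group and -1.33 ± 0.16 in monocytes. Its ranges were 0.40 to 0.55, -0.17 to 0.52 and -1.45 to -1.14, so the monocytes stand apart from both microglia groups. The difference in this gap between Ly6C-high microglia and monocytes was 1.80 log2 units (exact permutation test, two-sided, p = 0.10, the smallest that 3 against 3 arrays can give). For Ly6C-low microglia against monocytes the value was 1.49 (exact p = 0.10), and between the microglia groups 0.31 (exact p = 0.30).

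Ly6C-low microglia were lower than monocytes on 10429573 (-3.03 ± 0.55, 8.15-fold, adjusted p = 0.0114). On 10429568 the difference was -1.54 ± 0.69 (95% interval -3.13 to 0.05, adjusted p = 0.253), and it passed only without Ly6C-low replicate 1 (-2.33, adjusted p = 0.0342). The order of the group means was therefore Ly6C-high microglia, monocytes, Ly6C-low microglia on both probe sets. The upper neighbours were not separated by the all-array test on either, and the lower neighbours were separated on 10429573 alone.

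**Figure D2:**
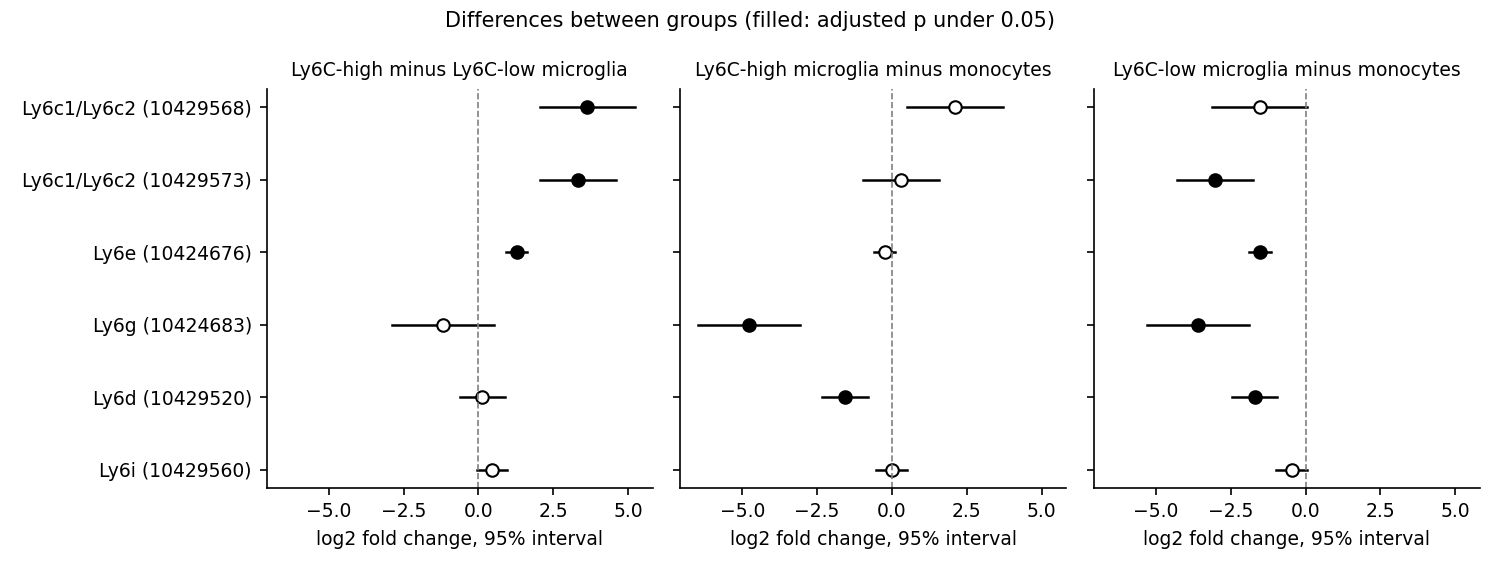
Log2 fold change of each Ly6 probe set in the 3 contrasts, with 95% intervals from the fit on all 9 arrays; filled points have an adjusted p under 0.05. The Ly6c1/Ly6c2 probe sets give 3.64 and 3.33 between the microglia groups but part against monocytes, at 2.11 and 0.30.

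Marker lists of other cells were read beside Ly6c. The brain endothelium list, with 19 of 20 genes called higher in Ly6C-high than in the Ly6C-low group and none lower, had a mean level of 10.17 to 10.68 in Ly6C-high arrays. In Ly6C-low replicates 1, 2 and 3 it was 7.52, 6.92 and 6.24, and in monocytes 6.22 to 6.27. Within Ly6C-low microglia the list and both Ly6c probe sets thus had the same order of arrays, and Ly6C-low replicate 3 had the lowest Ly6c. The monocytes had the list level of that array with Ly6c at 10.20 or above, so the list and Ly6c did not go together there. Of the classical monocyte list 1 of 13 measured genes was called higher and none lower between the microglia groups. Of all genes 3.77% were higher and 9.23% lower in this contrast. The means of this list were 7.26, 9.60 and 6.36 in Ly6C-high replicates 1 to 3. In Ly6C-low microglia they were 6.21 to 6.86 and in monocytes 10.45 to 10.77. Among the Ly6C-high arrays, which were sorted on Ly6C, the Ly6c probe sets read 12.40 to 12.50 and 11.85 to 12.03. These ranges are too narrow to compare with the list. Without Ly6C-high replicate 2 the Ly6c differences between the microglia groups were 3.65 and 3.30. The labels name antibodies to CD45, CD11b and F4/80 without the gates. A gate on cells positive for them is meant to leave endothelium out. The part of endothelial or monocyte RNA in the Ly6c readings was not tested.

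The genes whose profile over the 9 arrays came closest to Ly6c, out of 18313 named genes, differed between the shared probe sets. Closeness was the root mean square difference after each profile was centred on its own mean, and it follows the 3 groups as well as the arrays within them. For 10429568 they were Igfbp7, an insulin-like growth factor binding protein (0.41), the spectrin Sptbn1 (0.48), the endothelial receptor Heg1 (0.50), utrophin Utrn (0.51) and the transcriptional inhibitor Id3 (0.52). For 10429573 they were fibronectin Fn1, which is also on the classical monocyte list (0.27), the C-type lectin-like receptor Cd93 (0.47), Cdc42ep3 (0.48), Crip1 (0.53) and Slfn5 (0.53). The former were higher in Ly6C-high microglia than in monocytes by 1.53 to 2.32 in log2 fold change, and the latter differed by -0.31 to 0.71, as the rule for likeness makes them.

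Ly6e, the widespread member, was lowest in Ly6C-low microglia. Its probe set read 12.21, 12.66 and 12.32 in Ly6C-high microglia, 10.89, 11.34 and 11.14 in the Ly6C-low group and 12.66, 12.63 and 12.65 in monocytes. All Ly6C-low arrays lie below all others, by more than the spread within any group. Ly6C-high exceeded Ly6C-low microglia by 1.27 ± 0.16 (2.42-fold, 95% interval 1.88 to 3.11-fold, adjusted p = 0.0019), and Ly6C-low microglia were lower than monocytes (-1.52 ± 0.16, 2.88-fold, adjusted p = 7.50e-04). Both calls held under all 21 alternatives tried, with differences of 1.14 to 1.49 and of -1.63 to -1.16. Ly6C-high microglia and monocytes were not separated (-0.25 ± 0.16, 95% interval -0.61 to 0.11, adjusted p = 0.285), and their order turned with cyclic loess scaling (0.33, adjusted p = 0.0933). Leaving out Ly6C-high replicate 2, whose classical monocyte list was raised, gave 1.14 between the microglia groups (adjusted p = 0.0036).

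Ly6e is known to be induced by interferon, and a list of interferon response genes was read beside it. Between the microglia groups 6 of 21 measured genes were called higher and 1 lower, where 3.77% of all genes were called higher and 9.23% lower (1 probe set per gene, 19937 genes), and the list median was 0.49. Among the called genes the largest changes were those of the antiviral chaperone Rtp4 (2.04 ± 0.30, adjusted p = 0.0044), Xaf1 (1.81 ± 0.17, 4.94e-04), the transcription factor Irf7 (1.44 ± 0.38, 0.0492) and Ifi35 (1.26 ± 0.19, 0.0044) on the higher side, with the chemokine Cxcl10 lower (-2.27 ± 0.46, 0.0180). Ifit3 differed by more than Ifi35 but did not pass (1.38 ± 0.37, adjusted p = 0.0538). Against monocytes 9 of 21 were lower in Ly6C-high and 12 of 21 in Ly6C-low microglia, with none higher, where 12.1% and 6.33% of all genes were lower. The list mean was 7.11 to 7.38 in Ly6C-high microglia, 6.68 to 6.91 in the Ly6C-low group and 8.10 to 8.12 in monocytes. Its groups did not overlap. In Ly6e, Ly6C-high replicate 2 alone lay within the monocyte range, and replicates 1 and 3, at 12.21 and 12.32, lay below the lowest monocyte array at 12.63. The 5 genes nearest to Ly6e over the arrays, out of 18312, were none of that list: the copper chaperone Atox1 (0.09), thioredoxin Txn1 (0.17), the splicing component Snrpg (0.17), the lipoprotein receptor Scarb1 (0.19) and the methyl-CpG binding protein Mbd2 (0.19).

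Ly6g, the neutrophil marker, was high in the spleen monocyte samples and in a single microglia array. It read 4.44, 4.35 and 3.81 in Ly6C-high microglia, 4.50, 4.38 and 7.25 in the Ly6C-low group and 9.38, 8.18 and 9.37 in monocytes. Ly6C-low replicate 3 stands alone between the other microglia arrays and the monocytes. Ly6C-high microglia were lower than monocytes (-4.78 ± 0.74, 27.5-fold, adjusted p = 0.0050), a call that held under all 21 alternatives. Ly6C-low microglia were lower too (-3.60 ± 0.74, 12.1-fold, adjusted p = 0.0199). That call ended without Ly6C-low replicate 1 (-3.16, adjusted p = 0.0730) or replicate 2 (-3.10, 0.0689), or without monocyte replicate 1 (-3.40, 0.0810) or replicate 3 (-3.40, 0.0715). Without Ly6C-low replicate 3 the difference was -4.54 (adjusted p = 0.0013). The microglia groups were not separated (-1.18 ± 0.74, 95% interval -2.89 to 0.53, adjusted p = 0.372), and without Ly6C-low replicate 3 their difference was -0.24 (adjusted p = 0.782).

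Neutrophil markers were raised with Ly6g in Ly6C-low replicate 3, but did not follow it in every array. The mean over 14 measured genes of their list was 8.97 for Ly6C-low replicate 3. It was 6.64 and 6.86 for the other Ly6C-low arrays, 6.19, 7.41 and 6.20 in Ly6C-high replicates 1 to 3 and 10.35, 9.81 and 9.57 in monocyte replicates 1 to 3. Monocyte replicate 2 was lowest of its group in Ly6g but not in the list, and Ly6C-high replicate 2 exceeded Ly6C-low replicates 1 and 2 in the list but not in Ly6g. Of the 14 genes 10 were called lower in Ly6C-high microglia than in monocytes and 6 in Ly6C-low microglia, with none higher. Of all genes 12.1% and 6.33% were lower in these contrasts. Between the microglia groups 2 of the 14 were lower in Ly6C-high cells, where 9.23% of all genes were lower. In Ly6C-low replicate 3 the granule protein Ngp read 10.61, against 6.43 and 7.06 in replicates 1 and 2. The secreted resistin-like protein Retnlg was lower in Ly6C-high than in Ly6C-low microglia (-3.83 ± 0.66, adjusted p = 0.0085), where its mean was 9.34 ± 1.52. The 5 genes nearest to Ly6g over the arrays were the neutrophil chemokine receptor Cxcr2 (0.50), the granule genes Lcn2 (0.55), Camp (0.58) and Ngp (0.62) and the decoy receptor Il1r2 (0.63). Ly6C-high replicate 2, where the S100 alarmin S100a8 read 11.75 against 5.29 and 7.93 in replicates 1 and 3, had no raised Ly6g. A gate on F4/80-positive cells is meant to leave neutrophils out, though the labels do not state that it was set. The part of neutrophil RNA in the Ly6g readings was not tested.

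Ly6d was higher in monocytes than in either microglia group. It read 6.51, 6.30 and 6.43 in Ly6C-high microglia, 6.42, 6.18 and 6.25 in the Ly6C-low group and 8.26, 8.56 and 7.13 in monocytes. The microglia arrays lie close together and the monocytes spread over 1.44 log2 units, with replicate 3 lowest. The difference was -1.57 ± 0.33 for Ly6C-high (2.97-fold, adjusted p = 0.0180) and -1.70 ± 0.33 for Ly6C-low microglia (3.25-fold, adjusted p = 0.0154). The former call ended with 1 weight per group (adjusted p = 0.130), with the 6 arrays compared alone (0.0612) and without monocyte replicate 1 (-1.43, adjusted p = 0.0700) or replicate 2 (-1.28, 0.0546). The latter ended without monocyte replicate 1 (-1.56, 0.0659), Ly6C-low replicate 2 (-1.65, 0.0574) or Ly6C-low replicate 3 (-1.68, 0.0570). Both also ended when the arrays that share the number 11 in their descriptions, Ly6C-high replicate 2 with Ly6C-low replicate 3, were left out (adjusted p = 0.0590 and 0.0753). The microglia groups were not separated (0.13 ± 0.33, 95% interval -0.63 to 0.89, adjusted p = 0.828).

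The spleen samples also held lymphocyte transcripts, and all 9 measured B cell genes were lower in the Ly6C-low group and 8 of 9 in Ly6C-high microglia than in monocytes. Of all genes 6.33% and 12.1% were lower in these contrasts. The B cell list mean was 8.15, 8.79 and 8.71 in monocyte replicates 1 to 3, so replicate 3, lowest in Ly6d, was not lowest in this list. The 5 genes nearest to Ly6d were Cldn13 (0.16), the blood group genes Kel (0.20) and Rhd (0.22), Gprc5a (0.24) and Ap1s3 (0.25). An erythroid list, added after these values were seen and given without a test, had 8 of 12 genes measured, with no globin among them. Its mean was 7.11, 7.98 and 6.59 in monocyte replicates 1 to 3, the same order of arrays as Ly6d, and 6.08 to 6.60 in the microglia arrays. The anion exchanger Slc4a1 of red cells read 8.61, 10.36 and 7.70 in the monocytes and 5.95 to 6.28 in microglia. A gate on cells positive for CD11b and F4/80 is meant to leave out B cells and red cells, and again none is stated. The part of erythroid or B cell RNA in the Ly6d readings was not tested.

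**Figure D3:**
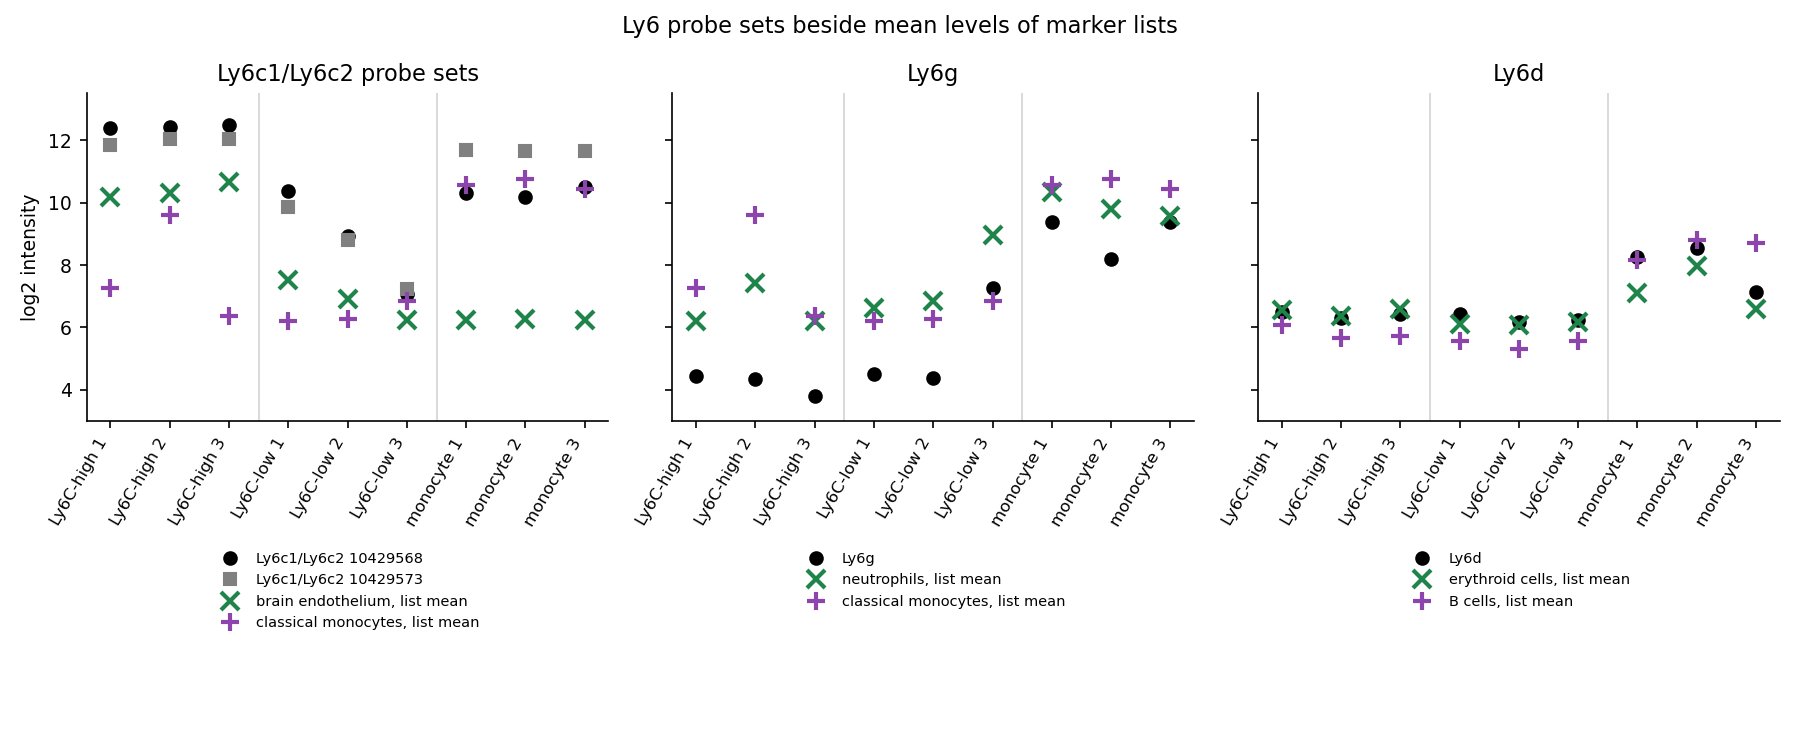
Log2 intensity of Ly6c1/Ly6c2, Ly6g and Ly6d in each array beside the mean log2 level of the marker lists named under each panel; grey lines divide the groups. Ly6c falls with the endothelium list from 7.52 to 6.24 across the Ly6C-low arrays. Ly6g and the neutrophil list are raised together in Ly6C-low replicate 3 (7.25 and 8.97). Among the monocytes Ly6d and the erythroid list are lowest in replicate 3 (7.13 and 6.59). The erythroid list was added after the Ly6d values were seen, so this likeness is no test.

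Ly6i, a close relative of Ly6c known from myeloid cells, was dim throughout. It read 4.96, 4.43 and 4.36 in Ly6C-high microglia, 4.24, 4.12 and 4.03 in the Ly6C-low group and 5.01, 4.36 and 4.41 in monocytes, below the median of all probe sets on all 9 arrays. The Ly6C-low arrays lie below the others, but no contrast passed: 0.45 ± 0.22 between the microglia groups (95% interval -0.06 to 0.96, adjusted p = 0.263), -0.01 ± 0.22 for Ly6C-high microglia against monocytes (-0.52 to 0.50, 0.972) and -0.46 ± 0.22 for Ly6C-low microglia (-0.98 to 0.05, 0.288). A difference above 2-fold lies outside each of these intervals, and RMA values of dim probe sets can understate differences. Counted by arrays alone, groups did not overlap for 4 of the 6 Ly6 probe sets between the microglia groups, where 26.7% of all probe sets did not. Both shared Ly6c1/Ly6c2 probe sets, the transcripts of the sort antigen, are among them. Against monocytes this held for 4 of 6 in Ly6C-high and 5 of 6 in Ly6C-low microglia, where 40.6% and 37% of all did not (19.8% with Ly6C-low microglia higher and 17.2% lower).

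Most other genes of the family were not called in any contrast. Of 38 relatives of the Ly6/uPAR family 35 were measured: 2 were higher and none lower between the microglia groups, 2 were higher and 1 lower in Ly6C-high microglia than in monocytes, and 1 was higher and 1 lower in Ly6C-low microglia than in monocytes. Their medians were 0.17, 0.23 and 0.06. Of all genes 3.77%, 5.24% and 5.61% were called higher in these contrasts and 9.23%, 12.1% and 6.33% lower. The mean level of the relatives was 5.62 to 5.91 in Ly6C-high, 5.44 to 5.56 in Ly6C-low and 5.45 to 5.48 in monocyte arrays. The median of all values was 5.88. For dim genes the lack of a call does not show unchanged expression. Cd59a, a GPI-anchored inhibitor of the complement attack complex, had a mean level of 8.21 ± 0.19 in Ly6C-high microglia, while its arrays read 4.89, 5.15 and 4.12 in the Ly6C-low group and 4.88, 4.97 and 4.13 in monocytes. The Ly6C-high arrays stand above both other groups, by 3.49 ± 0.31 (11.2-fold, adjusted p = 3.95e-04) and 3.55 ± 0.31 (11.7-fold, 3.21e-04). The other groups lie below the median of all values, 5.88, and the table has no detection calls, so these folds, like those of Ly6g, may understate the difference. Its paralog Cd59b was not called (0.29 ± 0.19 and 0.49 ± 0.19). Plaur, the urokinase receptor, was higher in monocytes, at 10.99 ± 0.18 against 8.64 ± 1.24 in Ly6C-high (-2.34 ± 0.58, adjusted p = 0.0335) and 8.16 ± 0.62 in Ly6C-low microglia (-2.83 ± 0.58, 0.0196). Lynx1, a brake on nicotinic acetylcholine receptors, was higher in Ly6C-high microglia by 0.93 ± 0.22 than in Ly6C-low microglia (adjusted p = 0.0336) and by 0.81 ± 0.22 than in monocytes (0.0469), under 2-fold in each. Gml was the gene higher in Ly6C-low microglia than in monocytes (0.51 ± 0.12, 0.0323), with means of 6.08 and 5.57, near the median of all values. Gpihbp1, which carries lipoprotein lipase on capillary endothelium, was not called in any contrast (0.35 ± 0.19 between the microglia groups, adjusted p = 0.302).

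**Figure D4:**
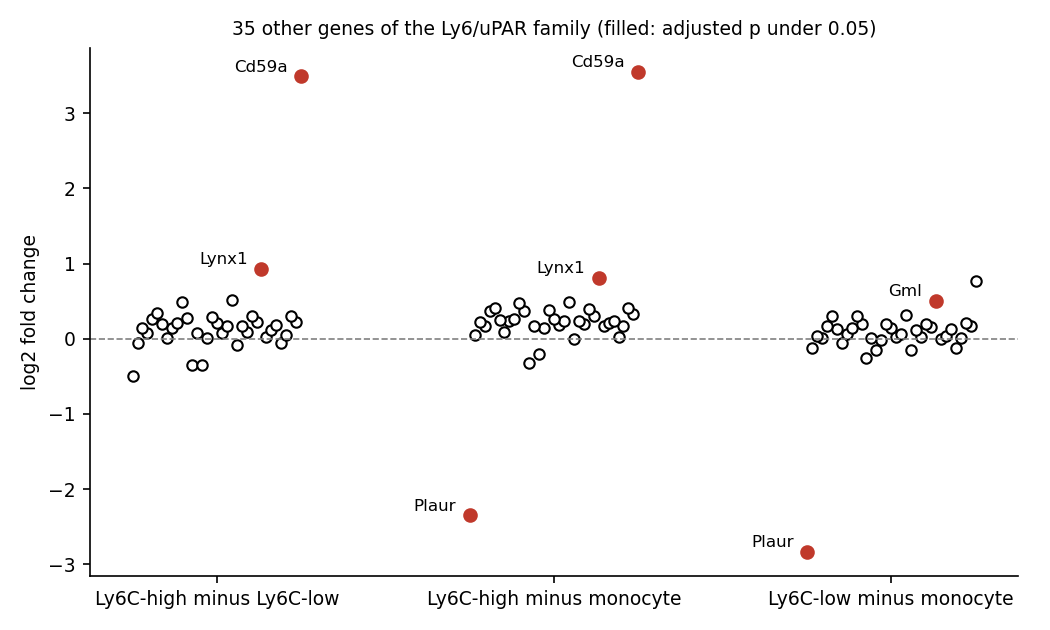
Log2 fold change of 35 further genes of the Ly6/uPAR family in the 3 contrasts, with a point per gene, spread sideways for legibility; filled points have an adjusted p under 0.05 and are named. Cd59a, at 3.49 and 3.55, and Plaur, at -2.34 and -2.83, lie apart from the other relatives, which cluster near 0.

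Position on the chromosome was read from the RefSeq gene order. From Ly6d to Gpihbp1 the table lists 23 protein-coding genes on chromosome 15, with Ly6e, Ly6i, Ly6a, Ly6c1, Ly6c2, Ly6a2 and Ly6g in succession. Of the genes in this interval 11 are not among the listed genes and were measured. None of the 11 was called between the microglia groups or between Ly6C-high microglia and monocytes, and 1, Gml, was called in the third contrast. Ly6a2, which lies between Ly6c2 and Ly6g, read 5.26, 5.56 and 4.92 in Ly6C-high and 4.95, 4.52 and 4.71 in Ly6C-low microglia (0.52 ± 0.22, adjusted p = 0.190). Ly6f, Ly6g2, Ly6h, Ly6k and Ly6m had differences of 0.17 to 0.26 between the microglia groups, and no adjusted p of these was below 0.344. Their group means lay between 4.29 and 5.99, so the lack of a call does not show unchanged expression.

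Genes that build and attach the GPI anchor were read because most Ly6 proteins need it. All 30 were measured, and 8 were called lower and none higher in Ly6C-high than in Ly6C-low microglia, against 9.23% of all genes lower, with a median of -0.39. Among them were Pigb (-1.27 ± 0.11, adjusted p = 3.81e-04) and Pign (-1.13 ± 0.16, 0.0034), which add mannose and ethanolamine phosphate to the anchor, the transamidase subunit Pigt (-0.73 ± 0.16, 0.0220) and Pgap2 (-0.95 ± 0.13, 0.0030), which remodels its lipid. Against monocytes 7 were lower and none higher in Ly6C-high microglia (median -0.33), and 2 were higher and 2 lower in Ly6C-low microglia (median -0.03). Of all genes 12.1% were lower in the former contrast, and 5.61% were higher and 6.33% lower in the latter. The list mean was 6.83 to 7.01 in Ly6C-high microglia, 7.20 to 7.36 in the Ly6C-low group and 7.34 to 7.37 in monocytes. Ly6C-high arrays were thus lowest in these genes and highest in Ly6c. The interquartile range of all values was 2.24 to 2.73 in Ly6C-high, 2.70 to 2.86 in Ly6C-low and 2.89 to 2.91 in monocyte arrays. The list lies above the median of all values, 5.88. Whether the range of an array bears on the level of this list was not tested, and the list was not read under other scaling.

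The remaining marker lists describe the samples as a whole. Of 14 homeostatic microglia genes 13 were lower in Ly6C-high than in Ly6C-low microglia, 9 were higher and 1 lower in Ly6C-high microglia than in monocytes, and all 14 were higher in Ly6C-low microglia than in monocytes. Between the microglia groups 1 of 10 nonclassical monocyte genes was higher, 1 of 10 T cell genes was higher and 1 lower, 1 of 9 NK cell genes was lower, 1 of 9 B cell genes was higher, 2 of 10 plasma cell and plasmacytoid dendritic cell genes were lower, 4 of 12 stem and progenitor genes were higher and 1 lower, and 1 of 10 pericyte and smooth muscle genes was higher. With 3.77% of all genes higher and 9.23% lower in this contrast, counts of 1 in 9 or 10 lie near the background. The monocyte samples were higher than Ly6C-high microglia in 3 of 13 classical monocyte genes and higher than Ly6C-low microglia in 10 of 13, and in 8 of 10 T cell, 4 of 9 NK cell, 9 of 9 B cell and 6 of 14 neutrophil genes. Of all genes 12.1% were lower and 5.24% higher in Ly6C-high microglia than in monocytes. For Ly6C-low microglia 6.33% were lower and 5.61% higher. The samples labelled spleen monocytes thus also held transcripts of B, T, NK and neutrophil marker genes above their level in Ly6C-low microglia.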

How the data were processed

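The series measured 9 Affymetrix arrays. The authors deposited log2 intensities, and per the submitters' processing notes RMA and oligo were used, without versions; their settings and the build: not given in the sources used here. Values were used as deposited, with no filter and no further scaling. Probe sets were named from the platform annotation: 21640 had 1 symbol, 1321 several and 11799 none. limma 3.58.1 in R 4.3.3 (lmFit, eBayes) fitted the 3 group means to all 34760 probe sets and 9 arrays, two-sided, with Benjamini-Hochberg adjustment at 0.05; every adjusted p is from this fit unless another is named. The code was tested on simulated data. List genes were read from their brightest probe set (19937 genes), with 1 symbol.

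Described were all Ly6 probe sets, relatives called at 2-fold, up to 5 interferon genes, up to 2 genes of other lists and the 5 nearest genes of probe sets spanning 1 log2 unit. Named outside this rule, after their values were seen, were Lynx1, Gml, Gpihbp1, Cd59b, Ifit3, S100a8, Slc4a1, the other Ly6 relatives and GPI anchor genes beyond the first 2. The members and lists were chosen with earlier results of these data known. Title numbers were not treated as pairs (see the last section). Few arrays limit the precision. RMA compresses differences of dim probe sets, and scaling different cell types alike can shift genes that did not change.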

Additional observations from a re-analysis of the deposited data

How the results depend on the processing

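Of 18 Ly6 differences, 11 kept their side of the threshold under every alternative in which they could be computed; the alternatives numbered 21, and 20 for Ly6i, which the filter on dim probe sets removes. No called difference changed direction. With 1 weight per group, shared by all probe sets, the Ly6 calls fell from 3 to 1 between the microglia groups. For Ly6C-high microglia against monocytes they fell from 2 to 1. The calls over all probe sets went from 3697 to 2294 and from 5001 to 3236 in these contrasts. For Ly6C-low microglia against monocytes the calls over all probe sets went from 3323 to 6481. With only the 6 arrays compared the totals were 2055, 3093 and 5444. The cause was not tested. Leaving out 1 array gave totals of 2065 to 4768, 2538 to 7567 and 1964 to 4380, and Ly6 calls of 3 to 3, 1 to 3 and 2 to 4; the lowest totals were without Ly6C-low replicate 3, monocyte replicate 2 and monocyte replicate 1, and 7567 was without Ly6C-high replicate 2. Quantile normalization and cyclic loess raised the share of higher calls from 29.6% to 40.2% and 41% between the microglia groups and from 31% to 44.7% and 43.9% for Ly6C-high microglia against monocytes, with no Ly6 call changed.

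Same-numbered titles were not treated as pairs: deviations of Ly6C-high and Ly6C-low arrays correlated at 0.21, 0.12 and 0.03, and 2 of 9 arrays correlated best with their own number in both other groups. With 3 arrays per group these values cannot show that no pairing exists. The descriptions carry other numbers, of which 8 is shared by Ly6C-high replicate 1 and Ly6C-low replicate 1 and 11 by Ly6C-high replicate 2 and Ly6C-low replicate 3 (deviations correlated at 0.21 and 0.12); what they mark is not stated. With them as a random block the totals were 4819, 4993 and 3405 and the Ly6 calls 3, 2 and 4. With the title number as a replicate block the totals were 3279, 4709 and 2976 and the Ly6 calls 3, 2 and 4. Differences of Ly6i and Ly6g near the lower end of intensity are limited by the dimness of their probe sets.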
